A study of Mus musculus with 8 samples.

Results

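The genes described here are 9 immune checkpoint and regulatory T cell genes measured in the left ventricle (LV) of mice: Cd274, Pdcd1lg2, Pdcd1, Ctla4, Lag3, Havcr2, Icos, Ido1 and Foxp3. They were taken by gene symbol from the 19933 genes of a whole-transcript expression array, and each of the 9 had 1 probe set. The list was chosen with earlier results of these data known. Total LV RNA was hybridised to 8 arrays, 1 for each labelled biological replicate. There were 2 PlGF mice, 3 mice labelled PlGF/RGS4 and 3 controls, all of the C57/Bl6 strain and 11 weeks old. In PlGF mice a Tet-OFF transgene expressed placental growth factor (PlGF), an angiogenic factor, in the heart. In PlGF/RGS4 mice a transgene for RGS4, a regulator of G protein signalling, was to be expressed together with PlGF. The driver tTA stood under the cardiomyocyte promoter αMHC, doxycycline in the diet kept the transgenes silent until 5 weeks of age, and normal chow then induced them for 6 weeks. Control mice were littermates that carried only 1 transgene, so that they lacked the induced factor while sharing strain, age and diet.

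Checkpoint receptors are carried mainly by activated T cells and pass inhibitory signals when they meet their ligands on other cells, which limits the response of the T cell. PD-L1, the product of Cd274, is induced by interferon gamma on many cell types, endothelial cells and cardiomyocytes among them. Loss of PD-1 or CTLA-4 signalling is known to permit T cell inflammation of the mouse heart. Regulatory T cells, which need the transcription factor Foxp3, use several of the same receptors to restrain other lymphocytes.

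In PlGF hearts Cd274 was 8.1-fold above control, Ido1 3.32-fold and Icos 2.19-fold, and these 3 of the 9 genes passed an adjusted p of 0.05 (limma over all 19933 genes). Among all genes, 1.79% were called higher and 0.748% were called lower in the same comparison. None of the 9 was called lower. In 7 of the 9 genes, all but Ctla4 and Foxp3, both PlGF arrays lay above all 3 control arrays, against 14.3% of all genes. The median log2 fold change of the 9 was 1.09, that of all genes was -0.03. These shares and medians only describe the 9, since the genes were chosen with earlier results of these data known. When the arrays labelled PlGF/RGS4 were set against control arrays, none of the 9 was called.

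The labels were first checked with the transgenes themselves. Pgf, which encodes PlGF, had an intensity of 4136.3 and 916.6 in the PlGF arrays, 300.0, 229.0 and 210.8 in the arrays labelled PlGF/RGS4, and 211.1, 348.9 and 387.1 in the control arrays. Pgf was therefore within the range of the controls, or just below it, in the arrays labelled PlGF/RGS4, which goes against that label. Rgs4 was not higher either, with 233.7, 186.9 and 229.3 in the arrays labelled PlGF/RGS4 against 209.5, 277.1 and 281.5 in control arrays, although whether its probes match the transgene is not given in the sources used here. PlGF replicate 1 correlated less with the arrays of the other groups (mean r = 0.974) than any other array did (0.991 to 0.993). The 8 cardiomyocyte markers had a summed intensity of 94058 and 111260 in the PlGF arrays and 110676 to 112888 in the other 6. Myh6, a defining gene among them, was between 12023.2 and 13622.3 in all 8 arrays. None of the 8 markers had a log2 difference above 0 between PlGF and control (median -0.09, lowest -0.73 in Ryr2). Their median log2 deviation from the control mean was -0.21 in PlGF replicate 1 and 0.00 in PlGF replicate 2. In bulk LV RNA, more cells of a type and more RNA per cell cannot be told apart.

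The checkpoint ligands are described first. Cd274 and Pdcd1lg2, which encode the PD-1 ligands PD-L1 and PD-L2, are neighbours on mouse chromosome 19, and Cd274 had the largest difference of the 9 between PlGF and control while its neighbour had one of the smallest. Their sequences upstream of the transcription start are shown for that reason. Each line gives the 250 bases that end just before the annotated start, read 5′ to 3′ on the plus strand, from RefSeq (GRCm38.p6). Cd274 lies at chr19:29367188-29367437 and Pdcd1lg2 at chr19:29410669-29410918. Capitals mark a match to the interferon regulatory factor core GAAANNGAA, read here on the opposite strand.
Cd274: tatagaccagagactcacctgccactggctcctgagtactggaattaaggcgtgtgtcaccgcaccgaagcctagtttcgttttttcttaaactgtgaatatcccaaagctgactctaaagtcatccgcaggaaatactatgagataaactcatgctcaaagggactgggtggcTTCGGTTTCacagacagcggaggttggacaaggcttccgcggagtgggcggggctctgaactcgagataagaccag
Pdcd1lg2: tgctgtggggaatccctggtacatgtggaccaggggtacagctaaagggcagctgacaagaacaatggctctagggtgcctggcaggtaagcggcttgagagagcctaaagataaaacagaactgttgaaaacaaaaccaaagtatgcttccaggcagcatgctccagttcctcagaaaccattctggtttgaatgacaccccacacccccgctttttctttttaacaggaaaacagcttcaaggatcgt
RefSeq windows of 300 bases around the start, the last 50 of them after it, were on hand for 6 of the 9 genes (7 windows, since Foxp3 has 2 starts). Both strands were searched for 3 motifs: the interferon-stimulated response element core GAAANNGAAA, its shorter form GAAANNGAA, which lies inside the longer one and was chosen after the Cd274 window had been seen, and the gamma-activated site TTCNNNGAA. The longer core was in none of the 7 windows and in 3.44% of all 32851 windows. The shorter core was in Cd274, from base -76 to base -68 before the start, and in Ctla4, from -166 to -158, and in 8.56% of all windows. Around the Ctla4 match, which stands in capitals, the sequence reads as follows.
Ctla4: gactcgaagcTTCAGTTTCaagttgagta
The gamma-activated site was in 8.3% of all windows and in that of the second Foxp3 start, from -139 to -131, again in capitals.
Foxp3: gagctctgttTTCCAAGAAcgggcattag
A match says only that these letters stand in the window.

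Cd274 had an intensity of 2640.3 and 1560.4 in the PlGF arrays, 253.2, 264.8 and 230.9 in the arrays labelled PlGF/RGS4, and 297.1, 272.6 and 208.4 in the control arrays. Both PlGF hearts stood far above the other 6, whose values overlapped between groups. Relative to the control mean, PlGF replicate 1 was 10.2-fold and PlGF replicate 2 was 6.02-fold. On the log2 scale, the difference between PlGF and control was 2.98 ± 0.23 (SE), with adjusted p = 0.00398 in limma. Cd274 was the one gene of the 9 that stayed past the threshold whichever single array was left out, with log2 fold changes of 2.60 to 3.36 and adjusted p-values up to 0.0328 over these 8 limma fits. The exact permutation test of its 5 values gave a two-sided p of 0.1, the smallest that 2 arrays against 3 allow, as it did for all 7 genes without overlap. Pdcd1lg2 was 31.7 in both PlGF arrays, 28.0, 27.9 and 29.4 in the arrays labelled PlGF/RGS4, and 28.7 in each of the 3 control arrays. The groups did not overlap between PlGF and control, but the distance was small, at 0.14 ± 0.05 on the log2 scale (95% interval 0.03 to 0.25), and it did not pass (limma adjusted p = 0.141). Identical values in several arrays were common in this dataset: 458 genes, 2.3% of all, had 1 value in all 3 control arrays. The absence of spread in Pdcd1lg2 was thus shared with many other genes. Its mean in the control arrays was low, with 15.8% of genes at or below it.

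**Figure D1:**
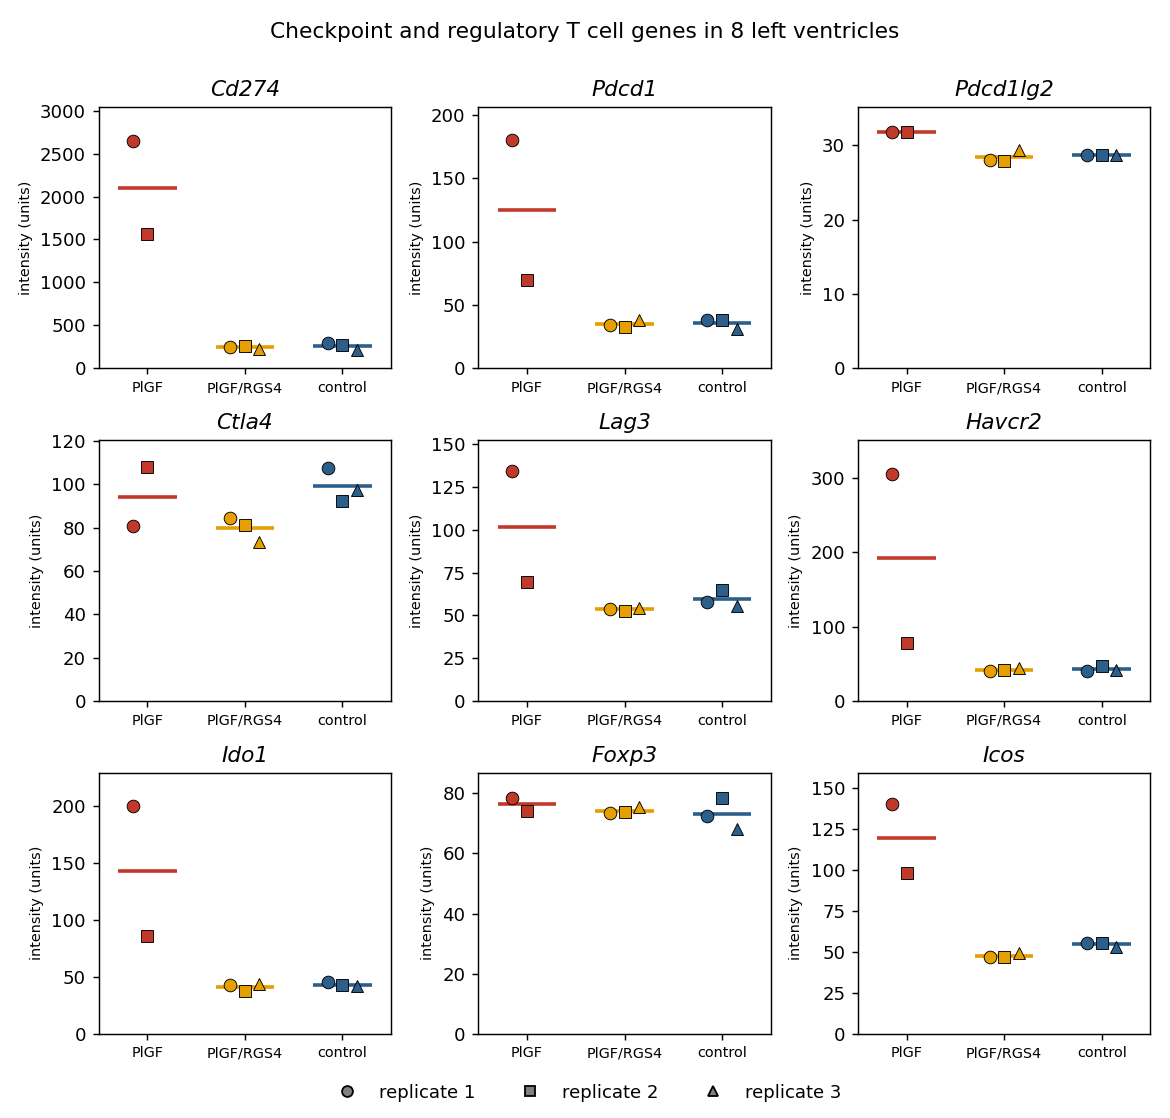
Array intensity (y axis, linear from 0, a separate range for each gene) of the 9 genes in the 2 PlGF arrays, the 3 arrays labelled PlGF/RGS4 and the 3 control arrays. Points are single arrays, shaped by replicate number, and bars are group means. Cd274 stands at 1560.4 and 2640.3 in PlGF arrays and below 300 in the other 6, whereas Ctla4 and Foxp3 overlap between PlGF and control.

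The receptor of both ligands, PD-1, is encoded by Pdcd1 and restrains T cell receptor signalling. Pdcd1 reached 179.8 and 70.0 in the PlGF arrays, against 34.6, 32.5 and 38.4 in the arrays labelled PlGF/RGS4 and 38.1, 38.4 and 31.4 in control arrays. Both PlGF values exceeded all others, and they differed 2.57-fold from each other. The log2 difference from control was 1.62 ± 0.34, and it missed the threshold (limma adjusted p = 0.0558). The log2 difference was 0.95 when PlGF replicate 1 was left out and 2.30 when the other PlGF array was. With each array centred on its median, Pdcd1 was called.

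Havcr2 encodes TIM-3, a receptor of exhausted T cells that macrophages and dendritic cells carry as well. Its intensity was 305.6 and 78.0 in the PlGF arrays, 40.6, 41.9 and 44.4 in the arrays labelled PlGF/RGS4, and 40.1, 46.7 and 41.6 in the control arrays. No array of the other groups came near either PlGF heart, yet the PlGF pair was 3.92-fold apart, the widest gap among the 9 genes. Havcr2 was 4.48-fold above control by the ratio of means, the second highest ratio after Cd274. Its log2 difference of 1.83 ± 0.47 did not pass in limma (adjusted p = 0.0827). With PlGF replicate 1 dropped the estimate was 0.85, and with the other PlGF array dropped it was 2.81.

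LAG-3, the product of Lag3, binds MHC class II and is built like CD4, whose gene Cd4 lies next to it. Lag3 was 134.6 and 69.3 in the PlGF arrays, 53.8, 52.7 and 54.5 in the arrays labelled PlGF/RGS4, and 57.6, 64.7 and 55.8 in the control arrays. PlGF replicate 2 lay only just above the highest control, at 1.17-fold of the control mean, and PlGF replicate 1 was at 2.27-fold. The log2 difference was 0.70 ± 0.23 (limma adjusted p = 0.142), and it was not called. Its value was 0.22 with PlGF replicate 1 dropped and 1.17 with the other PlGF array dropped.

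Ctla4 encodes CTLA-4, which competes with CD28 for CD80 and CD86 and is abundant in regulatory T cells. The PlGF arrays gave 80.8 and 107.8, the arrays labelled PlGF/RGS4 84.5, 81.1 and 73.4, and the control arrays 107.5, 92.1 and 97.4. The 2 PlGF hearts stood on either side of the controls, PlGF replicate 1 below all of them and PlGF replicate 2 barely above the highest. The log2 difference of -0.08 ± 0.13 had a 95% interval of -0.38 to 0.22 (limma adjusted p = 0.74). Its direction turned to 0.12 when PlGF replicate 1 was left out.

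Icos, the costimulatory receptor of activated and regulatory T cells, is the next gene after Ctla4 on chromosome 1, with Cd28 on the other side of Ctla4. Icos was at 140.0 and 98.2 in the PlGF arrays, 46.7, 46.6 and 49.4 in the arrays labelled PlGF/RGS4, and 55.3, 55.3 and 52.9 in the control arrays. The 3 groups were fully separate, with PlGF on top and the arrays labelled PlGF/RGS4 at the bottom. Icos rose by 1.09 ± 0.13 on the log2 scale in PlGF hearts (limma adjusted p = 0.0178). Its PlGF values were 1.43-fold apart, closer than those of the other 2 called genes. Its log2 difference was 0.84 with PlGF replicate 1 left out and 1.35 with the other PlGF array left out. The call was lost when any control or PlGF/RGS4 array was left out, with limma adjusted p-values up to 0.0883. The neighbouring Cd28 had a log2 difference of 0.15 ± 0.10 and was not called (limma adjusted p = 0.415).

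Ido1 encodes indoleamine 2,3-dioxygenase, an interferon-inducible enzyme that starts tryptophan breakdown along the kynurenine route and restrains T cells. Ido1 measured 200.2 and 86.1 in the PlGF arrays, 43.1, 37.3 and 43.8 in the arrays labelled PlGF/RGS4, and 45.4, 42.4 and 41.5 in the control arrays. The lower PlGF heart was at 2-fold of the control mean and the higher one at 4.65-fold. Ido1 rose by 1.59 ± 0.30 on the log2 scale (limma adjusted p = 0.0433). This call stood close to the threshold: it was lost without any single array of the control or PlGF/RGS4 groups (adjusted p-values up to 0.151), when all probe sets were tested (0.0504), with array weights (0.0541), with a term for Xist (0.051) and when 16 in place of 1 was added to each intensity (0.0603). Ido2, the paralogue next to Ido1 on chromosome 8, had 57.8 and 53.2 in PlGF arrays against 58.4, 60.5 and 56.5 in control arrays and was not called (log2 difference -0.07 ± 0.06, limma adjusted p = 0.504).

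Foxp3, the defining transcription factor of regulatory T cells, had the smallest difference of the 9 between PlGF and control. It had 78.4 and 74.3 in the PlGF arrays, 73.6, 73.8 and 75.4 in the arrays labelled PlGF/RGS4, and 72.5, 78.5 and 68.3 in the control arrays. All 3 groups overlapped. Every value was below the array medians of 111.1 to 115.15, as was every value of Ctla4. Whether a probe set at this level would register a change was not tested for either gene. Foxp3 was not the dimmest of the 9, since 37.2% of genes were at or below its mean in control arrays. That share was 30% for Icos and 24.5% for Ido1, and only Ctla4 (43.7%) and Cd274 (63.5%) stood higher than Foxp3. The log2 difference between PlGF and control was 0.06 ± 0.07, with a 95% interval of -0.09 to 0.22 (limma adjusted p = 0.6), and that between PlGF and the arrays labelled PlGF/RGS4 was 0.04 ± 0.07, with an interval of -0.12 to 0.19.

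**Figure D2:**
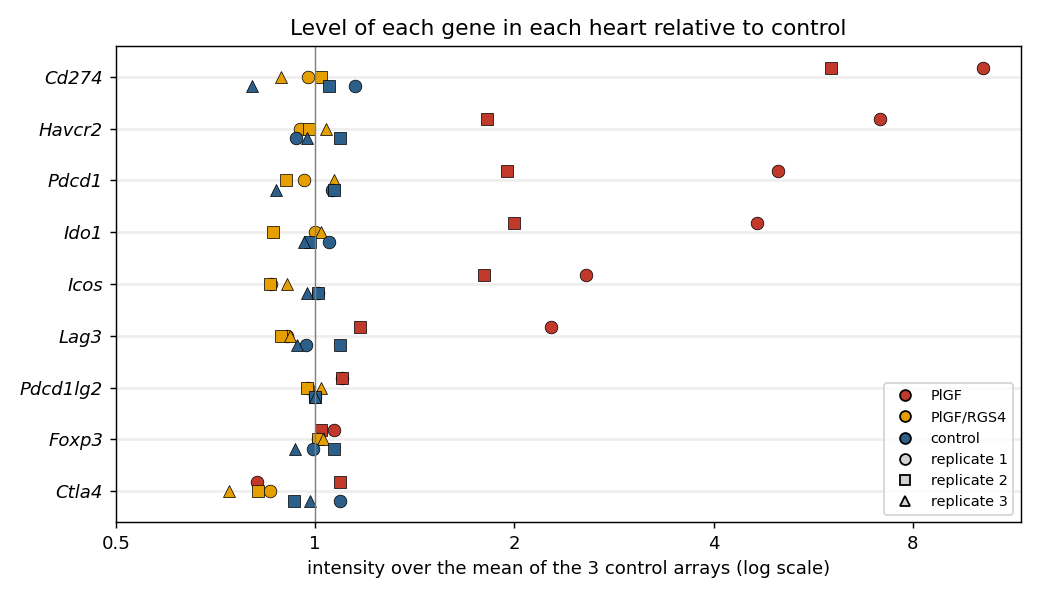
Intensity of each gene in each array divided by the mean of the 3 control arrays (x axis, log scale), with genes ordered by PlGF replicate 1. Colours mark the groups and shapes the replicate numbers. PlGF replicate 1 lies right of PlGF replicate 2 for Cd274, Havcr2, Pdcd1, Ido1, Icos and Lag3, and the arrays of the other 2 groups lie around 1.

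PlGF replicate 1 exceeded PlGF replicate 2 in 7 of the 9 genes, Foxp3 included, the exceptions being Pdcd1lg2, which was equal, and Ctla4. Across the 9 genes, the median log2 deviation from the control mean was 1.35 in PlGF replicate 1 and 0.84 in PlGF replicate 2. The female-specific transcript Xist was low in 1 array of each group, PlGF replicate 1 among them. Compared within arrays of like Xist level, Cd274 was 3.27 higher in the PlGF array on the log2 scale where Xist was low and 2.64 where it was high, and Icos was 1.32 and 0.85 higher. Ido1 was 2.21 and 0.97 higher in these same comparisons, which hold 1 PlGF array each.

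The comparison of PlGF with PlGF/RGS4 mice asks which changes differ when RGS4 is to be expressed as well, though Pgf in the second group was at the level of the controls. Cd274 was 8.41-fold and Icos 2.5-fold higher in PlGF arrays than in the arrays labelled PlGF/RGS4, and these 2 of the 9 genes were called. Of all genes, 1.1% were called higher and 0.0853% were called lower. The log2 differences were 3.02 ± 0.23 for Cd274 (limma adjusted p = 0.00368) and 1.28 ± 0.13 for Icos (0.0128). Cd274 passed whichever array was left out (adjusted p up to 0.0471), while Icos passed in 2 of those 8 fits. Ido1 lay just outside with 1.65 ± 0.30 (adjusted p = 0.0539), and it was called after quantile normalisation, median centring or array weighting. Pdcd1 (1.65 ± 0.34, limma adjusted p = 0.0717), Havcr2 (1.85 ± 0.47, 0.117) and Lag3 (0.84 ± 0.23, 0.143) were not called with all 8 arrays. With PlGF replicate 1 dropped, the log2 differences were 1.04 for Ido1, 0.98 for Pdcd1, 0.87 for Havcr2 and 0.36 for Lag3. With the other PlGF array dropped they were 2.25, 2.32, 2.82 and 1.31 for the same 4 genes. Together with Pdcd1lg2 they brought the genes in which both PlGF arrays exceeded all 3 others to 7 of 9, against 12.6% of all genes. The median log2 difference was 1.28 for the 9 genes and -0.03 for all genes. This comparison and that with control share the PlGF arrays.

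With the arrays labelled PlGF/RGS4 set against those of control mice, limma called 0 of the 9 genes, and 0.0151% of all genes. At an unadjusted p under 0.05 only Ctla4 passed, lower by the log2 value of -0.31 ± 0.11 (adjusted p = 0.945), against 2.28% of all genes that were lower at that level. In Ctla4, Lag3 and Icos, 3 of the 9, all arrays labelled PlGF/RGS4 lay below all control arrays, against 5.85% of all genes. Icos differed by -0.19 ± 0.12 and Lag3 by -0.14 ± 0.21, with limma adjusted p-values of 0.995 and 0.998. For Cd274 the log2 difference was -0.04 ± 0.20, with a 95% interval of -0.52 to 0.44. The SE of Havcr2 was the largest of the 9 in this fit, at 0.42, since the fit shares 1 spread per gene among the groups and the PlGF pair lay far apart. With only the 2 groups compared it was 0.07, around the same log2 difference of -0.01.

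**Figure D3:**
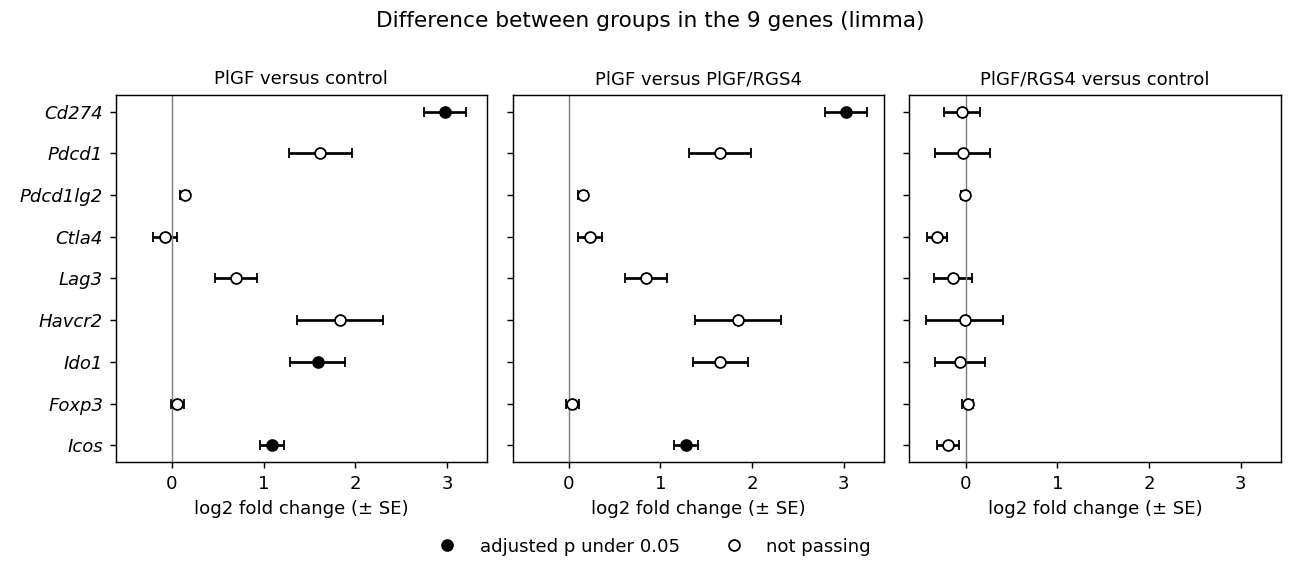
Log2 fold change of the 9 genes (x axis, points with SE from limma) in PlGF against control, PlGF against the arrays labelled PlGF/RGS4, and the arrays labelled PlGF/RGS4 against control. Filled points passed an adjusted p of 0.05: Cd274, Ido1 and Icos in the first comparison, Cd274 and Icos in the second, and none in the third.

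Partners of the 9 genes were then examined in PlGF against control. Of 42 other checkpoint ligands, receptors and costimulatory genes, 5 were called higher, 0 lower, and 37 did not pass. Their median log2 fold change was 0.56. The called genes were Cd96 (1.70 ± 0.22, limma adjusted p = 0.019) and Cd226 (1.42 ± 0.21, 0.0247), receptors of T and NK cells for nectin-type ligands, Cd48 (1.70 ± 0.28, 0.0333), an adhesion ligand of leukocytes, Tnfrsf14 (1.05 ± 0.18, 0.0363), the partner of BTLA, and Cd40 (1.03 ± 0.16, 0.0288), the costimulatory receptor of antigen-presenting cells. Cd96 was at 124.1 and 68.0 in PlGF arrays against 28.4, 28.6 and 25.8 in control arrays, so that the groups lay well apart. Tigit, the inhibitory relative of Cd226, had 453.3 and 156.1 against 94.4, 83.1 and 71.8 but did not pass (log2 difference 1.68 ± 0.38, limma adjusted p = 0.066). With PlGF replicate 1 dropped the log2 difference of Tigit was 0.91, and with the other PlGF array dropped it was 2.44. The median of the 42 genes was 0.20 when PlGF replicate 1 was left out and 0.91 when the other PlGF array was. The count of called genes was 0 when any 1 of the other 6 arrays was left out. Cd48 and Cd40 also lost their calls with PlGF replicate 1 dropped.

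The ligands of CTLA-4 and CD28 were Cd80, with 0.74 ± 0.25 (limma adjusted p = 0.142), and Cd86, with 1.49 ± 0.33 (0.0644), neither called. The log2 difference of Cd86 was 0.80 with PlGF replicate 1 dropped and 2.19 with the other PlGF array dropped. That of Cd80 was 1.22 with PlGF replicate 2 dropped, a fit that keeps PlGF replicate 1 alone, and PlGF replicate 2 lay nearer the controls. Cd86 was higher in both PlGF arrays, at 263.4 and 100.1, than in any control array, at 54.4, 58.4 and 58.4. Icosl, the ligand of ICOS, had 268.2 and 261.2 in PlGF arrays against 265.1, 279.3 and 261.2 in control arrays, and its groups overlapped (log2 difference -0.02 ± 0.05). The TIM-3 ligands Lgals9 (0.72 ± 0.22, limma adjusted p = 0.123) and Ceacam1 (0.04 ± 0.11, 0.845) were not called. With PlGF replicate 2 dropped, the log2 difference of Lgals9 was 1.14, so that it was smaller in PlGF replicate 2 than in PlGF replicate 1.

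Of 26 measured genes that regulatory T cells are known for, 4 were called higher, 0 lower and 22 did not pass, with a median of 0.26. The called genes were Il2rb (2.71 ± 0.30, limma adjusted p = 0.0144), the IL-2 and IL-15 receptor chain that NK and memory T cells also carry, Itgae (0.67 ± 0.07, 0.0134), an integrin of tissue-resident T cells, Irf4 (0.59 ± 0.08, 0.0227), a factor of activated lymphocytes, and Il7r (0.51 ± 0.09, 0.0401), which regulatory T cells are known to carry at low level. Il2rb reached 430.1 and 187.8 in PlGF arrays, against 46.7, 38.2 and 43.7 in control arrays. Among the 22 that did not pass, Il2ra, the high-affinity IL-2 receptor chain, had 0.35 ± 0.15 (limma adjusted p = 0.218), Ikzf2, a partner of Foxp3, 0.13 ± 0.12 (0.535), and the cytokine genes Il10 and Tgfb1, which other cells express too, 0.21 ± 0.07 (0.145) and 0.58 ± 0.17 (0.111). With PlGF replicate 2 dropped, the log2 differences of these cytokine genes were 0.29 and 0.93. Both were thus smaller in PlGF replicate 2 than in PlGF replicate 1. Irf4 and Il7r lost their calls with PlGF replicate 1 dropped (limma adjusted p = 0.0725 and 0.0829). Over both lists, 9 of 67 genes were called higher, beside the 1.79% of all genes given above. The count was 0 to 2 when 1 control or PlGF/RGS4 array was left out. The median log2 fold change over both lists was 0.23 with PlGF replicate 1 left out and 0.44 with the other PlGF array left out.

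In a list of 16 genes around the kynurenine route downstream of Ido1, 3 were called higher and 0 lower. The count was 0 with any 1 control or PlGF/RGS4 array dropped. Kynu, kynureninase, was at 35.4 and 32.3 in PlGF arrays against 25.2, 23.6 and 23.9 in control arrays (log2 difference 0.46 ± 0.06, limma adjusted p = 0.0178). Kmo, the monooxygenase of the same branch, had 0.48 ± 0.08 (0.0377). The remaining called gene, Wars, had 1.08 ± 0.19 (0.0377) and encodes an interferon-inducible tryptophanyl-tRNA synthetase, not an enzyme of the route. Afmid, the formamidase that acts just after Ido1, had -0.39 ± 0.13 and was not called (limma adjusted p = 0.128). The list's median was -0.04, close to that of all genes.

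Interferon gamma is the known inducer of Cd274 and Ido1, and 4 of 15 measured genes of its route were called higher and 0 lower, with a median of 0.55. The median was 0.32 with PlGF replicate 1 dropped and 0.63 with the other PlGF array dropped. No gene of the route was called with any 1 of the other 6 arrays dropped. Irf1, the transcription factor through which interferon gamma induces PD-L1, was at 2088.8 and 1051.4 in the PlGF arrays against 348.3, 351.4 and 286.0 in control arrays (log2 difference 2.18 ± 0.26, limma adjusted p = 0.0172). In the arrays labelled PlGF/RGS4 Irf1 was 296.8, 329.0 and 334.1, within the range of the controls. Irf8 (2.05 ± 0.30), Jak2 and Irf9 were the other called genes. Ifng itself had 247.7 and 92.0 in PlGF arrays against 48.6, 43.6 and 45.9 in control arrays, and missed the threshold (1.69 ± 0.34, limma adjusted p = 0.0526). Its log2 difference was 0.98 with PlGF replicate 1 left out and 2.40 with the other PlGF array left out. Among 20 measured transcription factors and regulators of effector and exhausted T cells, 3 were called higher, namely Tbx21, Ptpn22 and Id2, and 0 lower. The count was 0 or 1 with a control or PlGF/RGS4 array dropped.

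Markers of the cell types that LV tissue can hold were examined in the same comparison. Of 10 measured T cell markers, 8 were called higher in PlGF hearts, and their summed intensity was 1091 to 2355 in PlGF arrays, 547 to 561 in the arrays labelled PlGF/RGS4 and 543 to 559 in control arrays. The median log2 fold change of these markers was 0.82 with PlGF replicate 1 dropped and 1.06 with the other PlGF array dropped. The count of 8 was 1 with any 1 of the other 6 arrays dropped. Cd2 was called in every fit that left out 1 array, with 112.4 and 114.1 in PlGF arrays against 52.9, 49.9 and 54.5 in control arrays. Of 12 macrophage markers, 1 was called higher (Ccr2, 2.51 ± 0.24, limma adjusted p = 0.00799), and their sums were 6463 to 13198 in PlGF, 3862 to 4714 in PlGF/RGS4 and 4287 to 4526 in control arrays. In 10 of these 12 both PlGF arrays lay above all 3 control arrays, against 14.3% of all genes. The median log2 fold change of the macrophage markers was 1.18. It was 0.64 with PlGF replicate 1 dropped and 1.71 with the other PlGF array dropped. NK cell markers were called in 2 of 5 genes, with sums of 208 to 307 in PlGF, 92.5 to 97.1 in PlGF/RGS4 and 94.9 to 100.4 in control arrays. Their median log2 fold change was 1.21. Dendritic cell markers were called in 3 of 8, with sums of 817 to 1519 in PlGF, 553 to 573 in PlGF/RGS4 and 554 to 599 in control arrays. The count of macrophage markers stayed at 1 with any 1 of the PlGF/RGS4 arrays, control replicate 1 or control replicate 2 dropped. It was 0 with control replicate 3 dropped. With a PlGF/RGS4 array dropped, 0 to 2 NK cell markers and 0 to 1 dendritic cell markers were called. With any 1 control array dropped, 0 markers of these 2 cell types were called. Endothelial markers were called in 1 of 6 (Cdh5), and B cell, neutrophil, fibroblast and cardiomyocyte markers in none. No endothelial marker was called with any 1 control or PlGF/RGS4 array dropped. Of the cardiomyocyte markers, Ryr2 (log2 difference -0.73, limma adjusted p = 0.107) and Pln (-0.27, 0.184) were lower in both PlGF arrays than in all control arrays. The median of all 8 was 0.00 with PlGF replicate 1 dropped and -0.21 with the other PlGF array dropped. The part that these cells had in the values of the 9 genes was not tested.

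**Figure D4:**
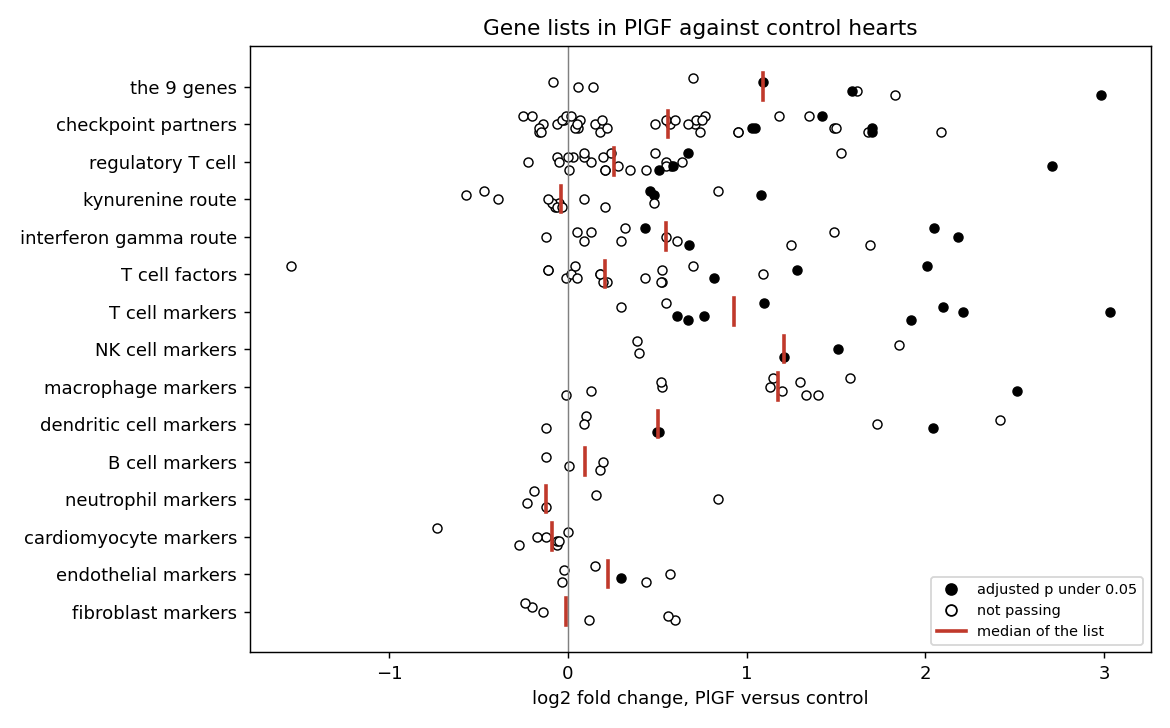
Log2 fold change in PlGF against control hearts (x axis) of each measured gene in 15 lists, with 1 point a gene and a red bar at the list's median. Filled points passed an adjusted p of 0.05 in limma. The medians were 1.21 for NK cell markers, 1.18 for macrophage markers, 1.09 for the 9 genes and 0.93 for T cell markers. They were 0.26 for regulatory T cell genes and -0.04 for the list labelled kynurenine route.

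The genes whose log2 values followed each called gene most closely over the 8 arrays were also taken, as a description in which the points share their groups. For Cd274 these were Gm12250, an interferon-inducible GTPase gene (r = 0.998), the integrin gene Itgae (0.997) and Ctsw (0.997), a protease gene of T and NK cells. Icos was followed by Lat, an adaptor of T cell receptor signalling (r = 0.997), Gzmk, a granzyme (0.995), and Ifi209 (0.995). For Ido1 the nearest were Klrb1b, an NK cell receptor (r = 0.999), H2-DMa, which loads MHC class II (0.997), and Cap1 (0.997).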

How the data were processed

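LV total RNA was labelled with biotin and hybridised to 8 arrays. The deposited values are linear intensities, which the authors made with MAS5 per the labels and scaled globally per their methods. In 15.9% of genes at least 2 of the 3 control arrays hold the identical value, and whether a further normalisation step was applied is not given in the sources used here, nor is a genome build. Probe sets (28440) were named through the platform annotation: 21780 had 1 gene symbol, 1618 several and 5042 none, and those without exactly 1 symbol were left out. The brightest probe set was kept for each of 19933 genes. The lowest intensity was 7.1, and array medians were 111.1 to 115.15. The number of arrays limits the precision, and the PlGF group holds 2.

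Intensities were converted to log2(intensity + 1), with no further scaling, and log2 fold changes are on that scale. Folds given without log2 are ratios of group means, or of 1 array to the control mean, of the linear intensities. All 8 arrays entered 1 fit by group (limma 3.58.1 in R 4.3.3, lmFit and eBayes), with Benjamini-Hochberg adjustment over all genes and a threshold of 0.05. The code was tested on simulated data. Single genes were compared with exact two-sided permutation tests, and summaries were made in Python 3.11.15.

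Named genes were the 9, fixed partner genes, up to 8 called genes of each list by smallest p, the 3 genes of highest Pearson r with each called member, and Pgf, Rgs4 and Xist. Ido2, Myh6, Ryr2 and Pln were named after their values had been seen. The 9 genes and all lists were chosen with earlier results of these data known. Alternatives were quantile normalisation, median centring, a filter at the median level, all probe sets, a trended robust prior, array weights, only the compared groups, the methods' t-test and one-way ANOVA spread, a replicate block, a pseudocount of 16, an Xist term and each array left out. Promoter windows came from RefSeq (GRCm38.p6). The labels call the replicates biological and say no more of them. The p-values therefore set differences against the spread between these samples, which the main limma fit shares among the 3 groups.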

Additional observations from a re-analysis of the deposited data

Results flagged for a closer look

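The values of 2 of the 9 genes differed between the hearts of the 2 transgenic labels by a test of that difference itself. Cd274 was higher in PlGF arrays than in the arrays labelled PlGF/RGS4 by 3.02 on the log2 scale, in both PlGF arrays against all 3 others (limma adjusted p = 0.00368). Icos was higher by 1.28 (limma adjusted p = 0.0128), again without overlap, but its call was lost when any array other than a PlGF array was left out. Pgf in the arrays labelled PlGF/RGS4 was at the level of the controls, so what the comparison sets against PlGF is uncertain. No sample of the 9 genes could be examined for a value far from its group, since each group has 2 or 3 arrays.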

How the results depend on the processing

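In PlGF against control, the count of 3 called genes was 1 with the filter at the median level, which left only Cd274 to test, 0 when only the compared groups were fitted, 1 by the methods' t-test (Pdcd1lg2, whose values had no spread) and 0 with one-way ANOVA spread. Against the arrays labelled PlGF/RGS4 the count of 2 was 1, 0, 0 and 0 under the same 4 settings. For the 67 partner genes the count of 9 became 3, 0, 0 and 0, and 4 with array weights. Deviations of same-numbered arrays from their group means had correlations between -0.22 and 0.3. With 2 or 3 arrays a group these cannot show whether the samples were paired, and the labels do not say. A fit that blocked on the replicate number gave counts of 1, 1 and 1 in these same 3 comparisons. It gave 0 for the arrays labelled PlGF/RGS4 against control, where every setting gave 0. Leaving out 1 array at a time gave 1 to 6 called genes in PlGF against control, 1 to 6 against the arrays labelled PlGF/RGS4, 0 to 0 in PlGF/RGS4 against control and 0 to 36 partner genes. The cause was not tested, except that without a PlGF array the lone PlGF array is assumed to vary like the other groups and that fits without other groups hold fewer arrays. Cd274 was called in all 8 of these fits in both PlGF comparisons, and lost its call only in the fits of the compared groups alone (adjusted p = 0.137 and 0.16), with the t-test and with ANOVA spread.

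Median centring turned Foxp3 in PlGF against PlGF/RGS4 to -0.01 (limma adjusted p = 0.955). It called 376 genes higher and 317 lower in PlGF against control, in place of 356 and 149. Ctla4 ranged from -0.29 to 0.12 in PlGF against control with 1 array left out. In PlGF/RGS4 against control the ranges that crossed 0 were -0.19 to 0.06 for Cd274, -0.12 to 0.02 for Pdcd1, -0.06 to 0.05 for Havcr2, -0.10 to 0.01 for Ido1 and -0.02 to 0.08 for Foxp3. Over all genes, 505 were called in PlGF against control, 5921 without PlGF replicate 2 and 17 without control replicate 3.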

Other observations

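Several other checkpoint genes, not described above, missed the threshold by little in PlGF against control hearts, and they are given as values chosen after they were seen. Sirpa, a myeloid receptor for CD47, had 1361.0 and 978.1 in the PlGF arrays against 768.8, 732.1 and 680.4 in control arrays (log2 difference 0.67 ± 0.13, limma adjusted p = 0.0501). Btla, an inhibitory receptor of lymphocytes and the partner of Tnfrsf14, had 92.5 and 65.5 against 48.9, 34.4 and 37.4 (0.95 ± 0.20, limma adjusted p = 0.0596). Tnfrsf18, the GITR receptor of regulatory and activated T cells, had 122.2 and 95.0 against 83.5, 71.9 and 73.8 (0.49 ± 0.12, limma adjusted p = 0.0739). In each of the 3 genes both PlGF hearts lay above all control hearts, and none was called by limma with PlGF replicate 1 left out.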
